A study of Mus musculus with 8 samples.

Results

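miR-103-3p and miR-107-3p (mmu-miR-103-3p and mmu-miR-107-3p in the deposited table) are microRNAs encoded in introns of the pantothenate kinase genes, and they were chosen by those names. Both members were found among the 1396 mouse miRNAs listed. Small RNA had been sequenced from left spinal cord, in mice of the C57BL/6 strain. In the 4 bone cancer pain libraries, cells of the mouse lung carcinoma line LL/2 had been placed in the marrow cavity of the left femur, and in the 4 sham libraries the cavity had received normal saline. All 8 libraries therefore share the strain, the tissue, the side and a femoral injection; age, sex and the time after injection are not given in the labels. The labels do not state that each library is its own animal, and p-values therefore measure only the differences among these samples, which could be technical.

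A miRNA is cut from a hairpin precursor, and bases 2 to 8 of the mature strand, the seed, pair with target messenger RNAs and lower their output. The host genes of miR-103 and miR-107 encode pantothenate kinases, which start the synthesis of coenzyme A, and the miRNAs are known for roles in insulin sensitivity and for repressing Dicer. In rat spinal cord, miR-103 was tied to pain through subunits of an L-type calcium channel that it represses.

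The mature sequences are shown first because the members differ in so little. In each line the seed is in capitals, 5′ to 3′, from RefSeq on GRCm38.p6, and 3 miRNAs of the related AGCAGC group follow for comparison.
miR-103-3p: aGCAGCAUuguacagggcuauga
miR-107-3p: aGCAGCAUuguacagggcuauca
miR-16-5p: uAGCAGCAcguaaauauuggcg
miR-195a-5p: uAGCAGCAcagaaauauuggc
miR-503-5p: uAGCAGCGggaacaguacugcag
The members share their seed and their first 21 bases. They differ by the single substitution G22C, with miR-103-3p given first and positions counted from 1 at the 5′ end, so a read of 21 bases or fewer could come from either. How the authors assigned such reads is not stated in the labels. In RefSeq, 2 mature mouse names carried the seed GCAGCAU, which are the members themselves. The wider group shares the 6 letters AGCAGC near the 5′ end, 1 base further in than in the members, which shifts the seed by 1 base.

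The precursors show which strand the reads came from. Both arms are in capitals, and the second run of capitals in each line is the 3p arm.
Mir103-1: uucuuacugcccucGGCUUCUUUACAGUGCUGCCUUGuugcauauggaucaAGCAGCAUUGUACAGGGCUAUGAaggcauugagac
Mir103-2: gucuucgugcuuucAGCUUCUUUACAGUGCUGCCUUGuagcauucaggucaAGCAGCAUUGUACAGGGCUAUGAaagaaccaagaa
Mir107: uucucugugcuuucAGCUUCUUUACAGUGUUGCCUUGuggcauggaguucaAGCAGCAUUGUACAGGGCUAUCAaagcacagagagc
Mir103-1 lies at chr11:35782396-35782481 on the plus strand, in intron 5 of the 1 GENCODE transcript of Pank3 that spans it. Mir103-2 lies at chr2:131288052-131288137 on the plus strand, in an intron of all 7 spanning transcripts of Pank2. Mir107 lies at chr19:34820687-34820773 on the minus strand, in an intron of all 3 spanning transcripts of Pank1. Each host gene is on the same strand as its miRNA, and none of these transcripts has an exon over the hairpin. The coordinates are of GRCm38, the assembly of the build mm10 named in the submitters' processing notes. Mir103-1 and Mir103-2 agree at 69 of 86 positions and give the same 3p arm, so the level of miR-103-3p cannot be divided between Pank3 and Pank2.

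The values are in CPM, counts scaled to a library total that also holds reads outside the listed miRNAs. Reads of listed miRNAs ran from 5220739 to 9260169 per library. Neural miRNAs summed to between 102588 and 129049 CPM in every library, and none of the 6 on that list was at 0. Skeletal muscle miRNAs set sham 1 and sham 2 apart, at 29307 and 24017 summed CPM against 5379 to 16950 CPM in the other 6, and values without these libraries are given for the members and the lists. Summed vascular miRNAs ran from 23404 to 35610 CPM (bone cancer pain) and 16905 to 29435 CPM (sham), erythroid miRNAs from 1449 to 2384 and 670.0 to 3415 CPM, and leukocyte miRNAs from 311 to 366 and 284 to 311 CPM. In bulk tissue, fewer cells of a type and less RNA per cell cannot be told apart.

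The comparison of tumour-bearing with saline-injected mice asks whether the spinal level of a miRNA differs in bone cancer pain. For miR-103-3p and miR-107-3p no difference beyond the spread between libraries was found. miR-103-3p, the abundant member, stood at 3368, 3262, 3651 and 3233 CPM in bone cancer pain libraries 1 to 4. In sham libraries 1 to 4 it stood at 3230.2, 3238, 3275 and 3605 CPM. The groups overlapped almost fully, and the highest library of each group, bone cancer pain 3 and sham 4, stood above the remaining 6. The means were 3379 ± 191 and 3337 ± 179 CPM (SD, n = 4 per group). The log2 fold change on the log2(CPM + 1) scale, positive where bone cancer pain is higher, was 0.018 ± 0.094 (SE) with limma (adjusted p = 0.978). The 95% interval ran from a 0.876-fold to a 1.17-fold level. Without bone cancer pain 3 the log2 fold change was -0.020, and without sham 1 and sham 2 it was -0.026. The median over all tested miRNAs was then -0.031 and -0.077, beside -0.0070 with all libraries.

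miR-107-3p, the scarcer member with the same seed, stood at 170.2, 204, 263 and 207 CPM in bone cancer pain libraries 1 to 4. In sham libraries 1 to 4 it stood at 183, 197, 207 and 236 CPM. The lowest and the highest of all 8 values were both in bone cancer pain, so every sham library lay within the range of the tumour group. The means were 211 ± 38.5 and 206 ± 22.4 CPM (SD, n = 4 per group), and its log2 fold change was 0.026 ± 0.15 (SE, limma adjusted p = 0.981). The 95% interval ran from a 0.806-fold to a 1.29-fold level. The log2 fold change was -0.085 without bone cancer pain 3, -0.028 without sham 1, 0.12 without bone cancer pain 1 and 0.093 without sham 4, and -0.083 without sham 1 and sham 2.

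As background, limma passed 0 of 605 tested miRNAs at an adjusted p of 0.05 (percent called 0), and 28 (4.63%) had an unadjusted p under 0.05. edgeR and DESeq2 on recovered reads also passed 0, with 43 and 31 at an unadjusted p under 0.05. The members were among neither the 22 miRNAs whose groups did not overlap (3.64% of those tested; 1.98% higher and 1.65% lower in bone cancer pain) nor the 28. Of the tested miRNAs, 7.11% had a smaller absolute log2 fold change than miR-103-3p and 10.4% a smaller one than miR-107-3p. A narrower interval than that of miR-103-3p was found for 0.992% of them, so the bounds on this miRNA were among the tightest of the table.

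**Figure D1:**
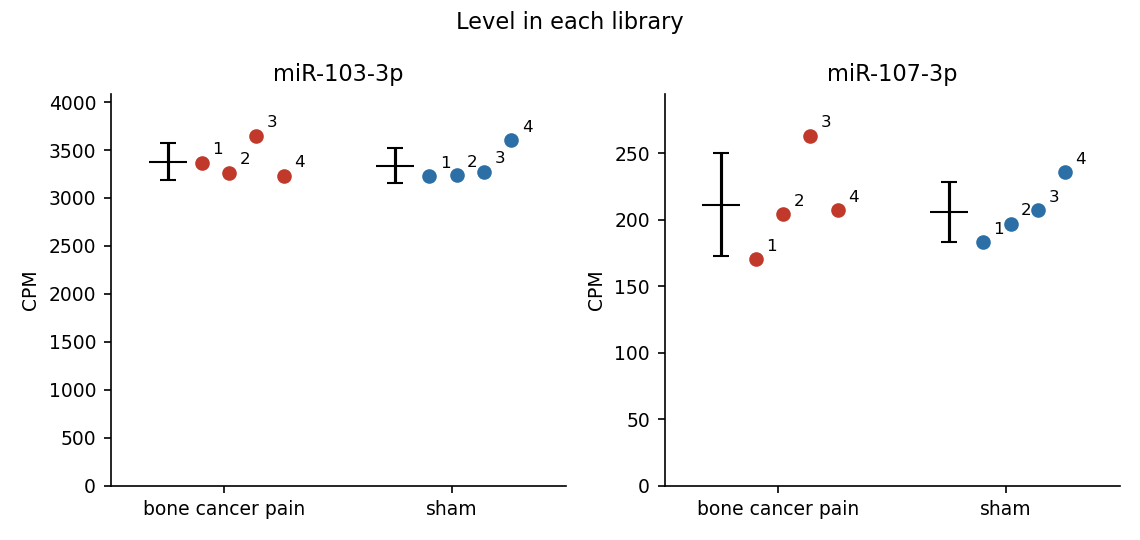
CPM of miR-103-3p (left) and miR-107-3p (right) in each library, with libraries numbered as in the labels and the group mean ± SD in black; both axes start at 0. The 2 groups overlap for both miRNAs, and bone cancer pain 3 is the highest library in each panel.

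As the miRNAs share a seed, their sum and their proportion were also compared. The summed level was 3538, 3466, 3914 and 3440.3 CPM in bone cancer pain and 3413, 3435, 3482 and 3840.4 CPM in sham, libraries 1 to 4. If each read was counted under 1 name, these sums do not depend on how reads of 21 bases or fewer were divided. However, miR-199a-3p and miR-199b-3p, whose mature sequences are the same, had identical values in all 8 libraries. That would follow if a read was counted under every name it matched. Reads of 21 bases or fewer would then enter the level of both members, and so the sum, the ratio and the share below. How such reads were counted was not tested. miR-103-3p and miR-107-3p had identical values in 0 of 8. The difference of the log2 sums was 0.019 (two-sided exact permutation test over 70 arrangements, p = 0.543, n = 4 per group; the smallest possible p is 0.0286). The interval from the same permutation test ran from 0.897-fold to 1.15-fold, and without bone cancer pain 3 the difference was -0.023. The members made up 0.494% to 0.585% of the listed CPM of a library.

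miR-103-3p supplied most of the shared seed. It was 19.8, 16.0, 13.9 and 15.6 times as high as miR-107-3p in libraries 1 to 4 of bone cancer pain and 17.6, 16.4, 15.8 and 15.3 times as high in sham. The lowest and the highest ratio were both in bone cancer pain. On the log2 scale the ratio averaged 4.02 ± 0.21 in bone cancer pain and 4.02 ± 0.089 in sham (SD, n = 4 per group). The difference was -0.0081 (two-sided exact permutation p = 0.943), with a permutation interval from 0.787-fold to 1.29-fold. Leaving out bone cancer pain 1 gave -0.11, leaving out bone cancer pain 3 gave 0.066, leaving out bone cancer pain 4 gave 0.0093 and leaving out sham 1 gave 0.031.

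As a share of both, miR-107-3p was 4.81% in bone cancer pain 1 (95% Wilson interval 4.57% to 5.06%) and 6.72% in bone cancer pain 3 (6.48% to 6.98%). These intervals do not overlap, so the lowest and the highest library differed by more than the counting error of independent reads. The other 6 libraries lay between 5.36% and 6.14%. Such intervals cover counting error alone, and they are too narrow where PCR copies of a molecule are counted as separate reads. miR-103-3p rested on 27433 to 43712 reads per library and miR-107-3p on 1386 to 2659, for a counting error of at most 0.604% and 2.69% of the value.

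**Figure D2:**
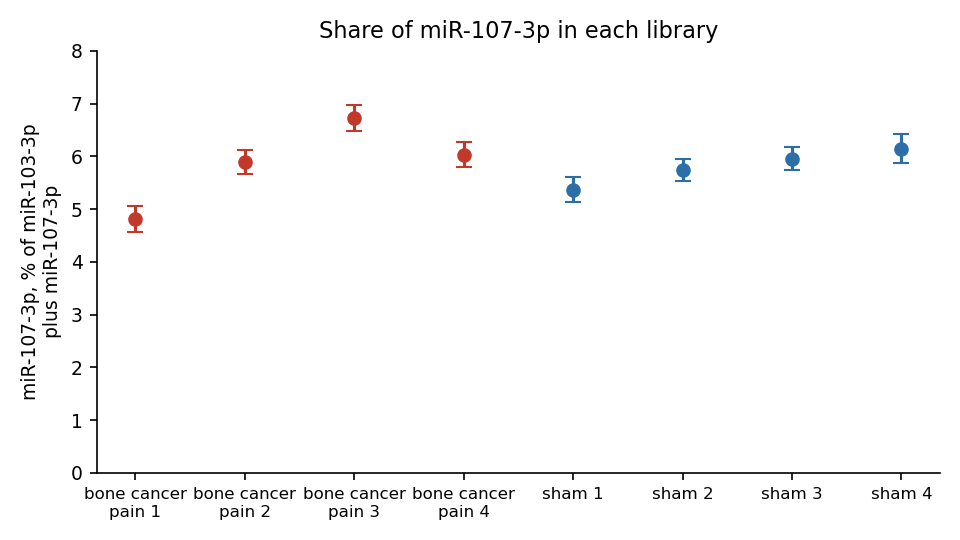
Reads of miR-107-3p as a percentage of miR-103-3p plus miR-107-3p in each library, with 95% Wilson intervals (counting error only); red, bone cancer pain; blue, sham. The bone cancer pain libraries run from 4.81% to 6.72% and the sham libraries lie within that range.

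The members differed from each other in how steady they were. Over all 8 libraries the SD of log2(CPM + 1) was 0.073 for miR-103-3p and 0.20 for miR-107-3p, and the highest library exceeded the lowest 1.13-fold and 1.55-fold. Among the 69 miRNAs that averaged 1000 CPM or more, miR-103-3p had the third smallest SD, rank 3, where the median SD was 0.16. Only let-7j and let-7g-5p were steadier in that set, with SDs of 0.057 and 0.070, and miR-30d-5p followed with 0.080. The rank was 5 with CPM rescaled to the listed miRNAs, 1 with median-of-ratios scaling and 2 without sham 4. Among the 184 miRNAs with at least 100 CPM, miR-107-3p ranked 84, near the median SD of 0.20. These ranks are a description and were not tested. The members also differ about 16.3-fold in level, and the part of level in their SDs was not tested.

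**Figure D3:**
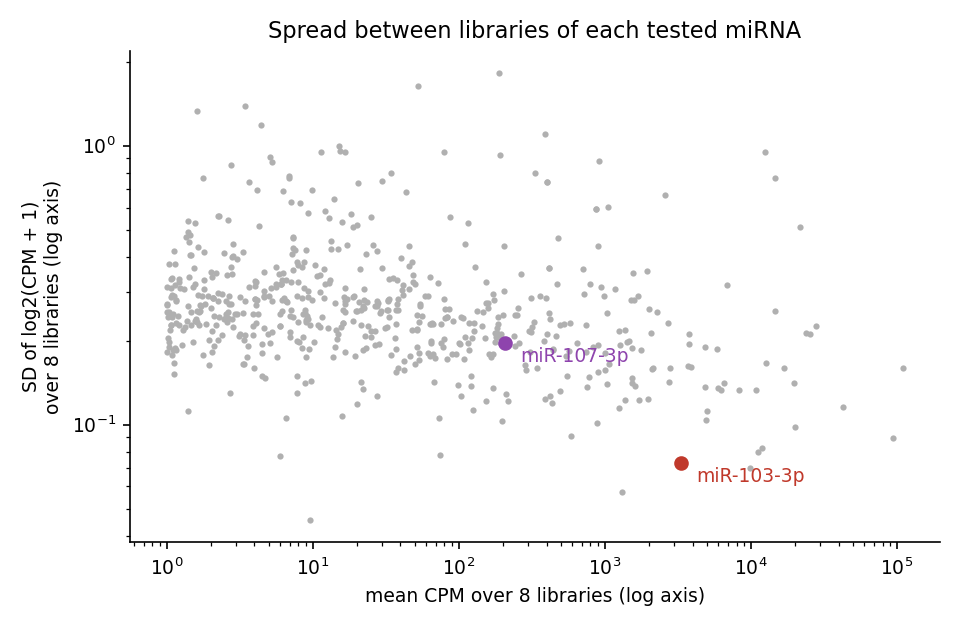
SD of log2(CPM + 1) over the 8 libraries against mean CPM, both on log axes, for each of the 605 tested miRNAs (grey), with the members coloured. miR-103-3p, at an SD of 0.073, lies at the lower edge of the cloud, and miR-107-3p, at 0.20, lies inside it.

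In order of mean level over the 8 libraries, miR-103-3p ranked 33 of 1396 and miR-107-3p 134. miR-103-3p averaged 3358 CPM, between let-7a-5p at 3751 and miR-411-5p at 2812 CPM. The range of each neighbour overlapped that of miR-103-3p, with let-7a-5p at 3081 to 4264 CPM and miR-411-5p at 2483 to 3494 CPM. Their order within each library was not compared. miR-107-3p averaged 208 CPM, between miR-380-5p at 210.1 and miR-196a-5p at 204 CPM, both within its spread of 29.3 CPM (SD over 8 libraries).

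The 5p arms shown above were almost without reads. miR-103-1-5p had 1 read, in sham 2, and miR-103-2-5p had 2 reads in sham 1 and 1 in sham 2. miR-107-5p had 3 reads in bone cancer pain 1 and 1 in bone cancer pain 4. Every other library had 0 reads, which allows up to 3 reads, or 0.222 to 0.390 CPM. None of these arms reached the mean of 1 CPM needed for testing, and no fold is given. Against 301425 reads of the 3p arms in all libraries together, the 8 reads of 5p arms are 0.00265% of the reads. Of 130 hairpins with both arms listed under 1 name and at least 100 CPM, the median share of the scarcer arm was 1.18%. In 17 of them that share was below the 0.0276% of mean CPM in miR-107-5p, and in 1 it was below the 0.00141% of reads in both 5p arms of miR-103.

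No relation between the members across libraries passed a p of 0.05. Between miR-103-3p and miR-107-3p, on log2(CPM + 1), Pearson's r was 0.74 (exact permutation p = 0.0579, n = 8) and Spearman's rho 0.57 (exact permutation p = 0.151). No other pair of miRNAs was tested for a relation, and the p-values for this pair were not adjusted. Without bone cancer pain 3 and sham 4, the libraries farthest from the median of miR-103-3p, r was -0.64 (exact permutation p = 0.294, n = 6), so the positive r rests on those libraries. The groups of 4 are too small for a value each. With each group's mean subtracted, r was 0.74.

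Among 183 other miRNAs with at least 100 CPM, the patterns most like that of miR-103-3p over the 8 libraries were those of miR-384-5p, miR-1249-3p, miR-411-3p, miR-9-3p and miR-433-3p. Their Pearson r with it ran from 0.97 for miR-384-5p to 0.91 for miR-433-3p, as a description. Without bone cancer pain 3 and sham 4 these values ran from 0.67 to -0.52. For miR-107-3p the most alike were miR-328-3p, miR-29a-3p, miR-335-3p, miR-411-3p and let-7d-5p, with r from 0.92 to 0.89, and 0.85 to 0.39 without those libraries. By this measure miR-107-3p ranked 37 for miR-103-3p, and miR-103-3p ranked 23 for miR-107-3p. All points come from the same 8 libraries and share their scaling.

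The AGCAGC group holds the miRNAs whose 5′ ends share AGCAGC with the members, as in the sequences of miR-16-5p and miR-195a-5p above. Of its 7 other miRNAs, 0 passed the adjusted threshold in either direction with limma, 2 had an unadjusted p under 0.05, where 4.63% of all tested did, and all 7 log2 fold changes were positive, with a median of 0.26. Over all tested miRNAs 292 of 605 were positive, with a median of -0.0070. The group was chosen with earlier results of these data known, so these counts and medians are a description only. The 7 come from shared clusters, miR-15a with a copy of miR-16, miR-15b with the other copy, miR-195a with miR-497a and miR-322 with miR-503, so they are not independent. All 7 were also positive without each library in turn and under each scaling, with medians from 0.19 to 0.38. Leaving out bone cancer pain 4 gave a median of 0.19, and leaving out sham 1 and sham 2 together gave 0.38. Marker lists also lay to 1 side, with erythroid miRNAs positive for 4 of 4 (median log2 fold change 0.67), vascular for 4 of 4 (0.27), leukocyte for 4 of 4 (0.30) and skeletal muscle negative for 7 of 7 (-0.94). Their part in the values of the AGCAGC group was not tested.

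miR-16-5p, the most abundant of them and known for restraining cell division, had means of 574 ± 57.9 in bone cancer pain and 485 ± 77.6 CPM in sham, and its log2 fold change was 0.25 (95% interval from -0.066 to 0.57). miR-15a-5p averaged 11.7 ± 1.27 against 8.15 ± 0.782 CPM, and miR-195a-5p 72.2 ± 9.66 against 56.3 ± 3.50 CPM, with log2 fold changes of 0.47 and 0.35 (limma adjusted p = 0.887 for both). miR-15a-5p, miR-195a-5p and miR-497a-5p did not overlap between groups, where 1.98% of the tested miRNAs lay higher in that way. miR-15b-5p, miR-322-5p, miR-497a-5p and miR-503-5p had log2 fold changes of 0.35, 0.26, 0.19 and 0.22.

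Summed, the 7 stood at 679, 725, 691 and 857 CPM in bone cancer pain and at 506, 635, 648 and 677 CPM in sham, libraries 1 to 4. The lowest tumour library exceeded the highest sham library by little, and after rescaling each library to its listed miRNAs the ranges overlapped (670.3 to 849 and 508 to 685). The members made up 80.1% to 87.1% of the CPM of all 9 in a library. Of the remaining names with AGCAGC at base 1, 2 or 3 in RefSeq, miR-195b had 3 reads in all, in bone cancer pain 4. The names miR-6342, miR-6353 and miR-6419 were not among the miRNAs listed.

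Other miRNAs in introns of lipid metabolism genes, like the members' hosts, are miR-33 in Srebf2 and miR-378a in Ppargc1b. Of their 4 arms, 0 passed the adjusted threshold with limma, and 2 were positive and 2 negative; the median log2 fold change was 0.018, or -0.13, -0.052 and -0.058 without bone cancer pain 4, sham 3 and sham 4. miR-33-5p and miR-33-3p were near the filter, at 1.93 ± 0.775 against 1.14 ± 0.280 CPM and 3.47 ± 0.338 against 2.58 ± 0.614 CPM, with log2 fold changes of 0.43 and 0.33. miR-378a-3p averaged 2325 ± 1300.4 against 2819 ± 1292 CPM and miR-378a-5p 6.64 ± 3.41 against 9.89 ± 4.08 CPM, with log2 fold changes of -0.30 and -0.52. Without sham 1 and sham 2, the libraries with the most skeletal muscle miRNAs, 3 of the 4 were positive. The median of the 4 was then 0.24, and it was 0.14 without sham 1 alone. The part of muscle RNA in these values was not tested.

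miR-103 was linked to a calcium channel in pain models, and 7 other miRNAs linked to ion channel genes in such models were set beside it. None passed the adjusted threshold with limma (0 of 7), 1 had an unadjusted p under 0.05, where 4.63% of all tested did, and all 7 were positive, where 292 of 605 tested were. Their median was 0.19 on the log2 scale, beside -0.0070 over all tested. The 7 were chosen with earlier results of these data known, so these counts and medians are a description only. Without sham 1 and sham 2 their median was 0.27 with 6 of 7 positive, beside -0.077 over all tested. The part in this list of the marker lists that lay to 1 side, given with the AGCAGC group above, was not tested. miR-30b-5p, tied to voltage-gated sodium channels, averaged 288 ± 18.1 against 234 ± 22.3 CPM, with groups that did not overlap, as for 1.98% of the tested miRNAs in that direction, and a log2 fold change of 0.31 (limma adjusted p = 0.887). miR-183-5p, miR-182-5p and miR-96-5p, encoded together in a sensory neuron cluster, were at log2 fold changes of 0.20, 0.19 and 0.11. For miR-137-3p, miR-7a-5p and miR-384-5p the values were 0.28, 0.048 and 0.062. Without bone cancer pain 3, miR-384-5p was at -0.040, and without sham 2, miR-7a-5p was at -0.030, so that 6 of the 7 were positive in each case. Without sham 4, miR-7a-5p was at -0.055 and miR-96-5p at -0.062, and 5 of the 7 were positive. The median of the list without sham 4 was 0.035, below the 0.055 over all tested. Leaving out bone cancer pain 4 gave a median of 0.12, beside -0.019 over all tested.

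**Figure D4:**
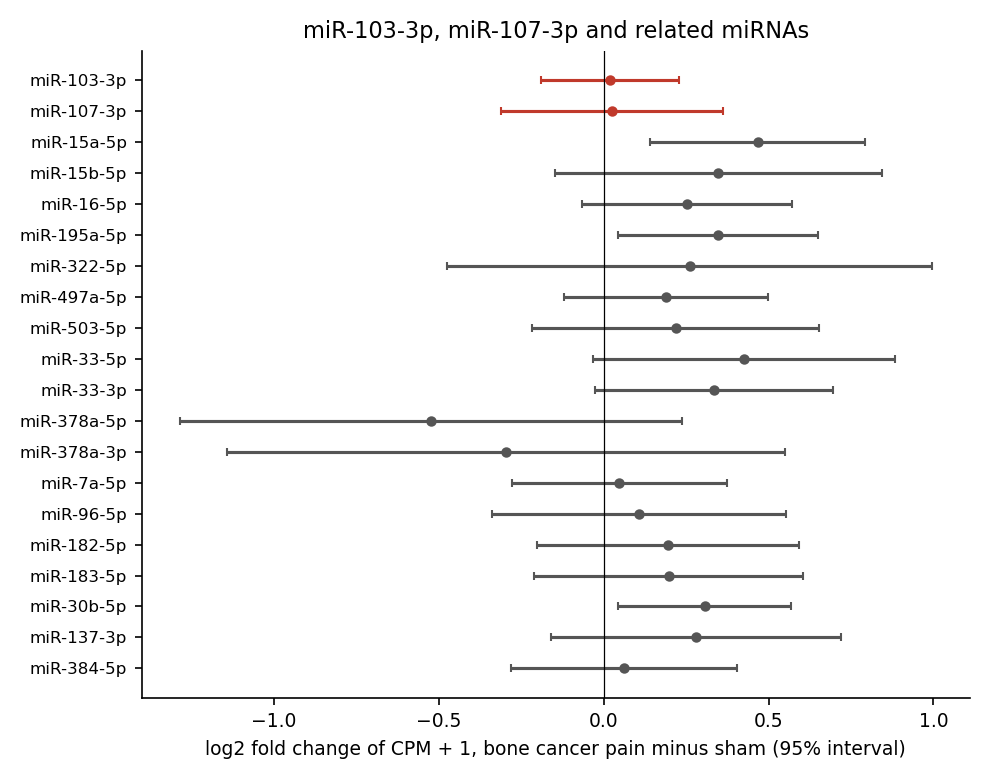
log2 fold change of CPM + 1, positive where bone cancer pain is higher, with 95% intervals from limma, for miR-103-3p and miR-107-3p (red) and the AGCAGC group, the miRNAs of lipid metabolism introns and the ion channel miRNAs (grey). The intervals of miR-103-3p (-0.19 to 0.23) and miR-107-3p (-0.31 to 0.36) are centred near 0, and none of the plotted miRNAs passed the adjusted threshold.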

How the data were processed

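Expression was deposited by the authors as CPM for each mature miRNA, with 2 decimals, in 1 table. The deposited CPM of a library sum to between 669252 and 701908. The build mm10 and, as tools, fastp, STAR, Bowtie and Salmon are named without role or version, per the submitters' processing notes; the labels' protocols describe TRIzol extraction, rRNA removal and cDNA library kits. No column was left unmapped.

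Each CPM value was divided by the value of 1 read, found from the spacing of the low values. All values above 0 (100%) came out as whole reads within 0.0051 CPM, whichever the library. The spacing of 0.100 CPM found for bone cancer pain 3 is not that of rounding to 0.1 CPM, since only 16.6% of its larger values, from 1 CPM up, were such multiples. Library totals ran from 7686762 to 13498956 reads. Between libraries of 1 group the chi-square divided by its degrees of freedom was 31.8 to 503, so no library repeated another of its group. Pairs across the groups were not compared in this way.

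miRNAs averaging 1 CPM or more (605, leaving out 791) were tested as log2(CPM + 1) with limma 3.58.1 in R 4.3.3 (mean-variance trend, two-sided, Benjamini-Hochberg over all tested, threshold 0.05). Changes of miRNAs near 1 CPM are understated on this scale. The sum and the ratio of the members used log2 CPM without a pseudocount, an exact permutation test in SciPy 1.17.1 and the interval of shifts that test did not reject at 0.05. edgeR 4.0.16 (quasi-likelihood) and DESeq2 1.42.0 on recovered reads were alternatives. Other alternatives were pseudocounts, filters, scalings, array weights, no trend, leaving out libraries and a replicate block; 3 on the SD of miR-103-3p were chosen after seeing the data. The limma step was also run on simulated reads, and the outcome is not reported here. Those reads were drawn independently, without shifts shared by the miRNAs of a library.

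The members and the lists were chosen with earlier results of these data known. The miRNAs named are the members, all of the lists, their neighbours in mean level, the 5 with the most alike pattern for each member, and RefSeq names with AGCAGC at base 1, 2 or 3; the steadiest miRNAs were named after their values were seen. Introns are from GENCODE M21 and sequences from RefSeq, in which both members were matched by name.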

Additional observations from a re-analysis of the deposited data

Results flagged for a closer look

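Sham 4 stood apart from its group in miR-103-3p, at 3605 CPM against 3230.2 to 3275 CPM in the other 3 sham libraries. The gap was 0.881 of the group's range, above Dixon's 95% critical value for 4 samples. The summed level of miR-103-3p and miR-107-3p in sham 4 was also apart, at 3840.4 CPM against 3413 to 3482 CPM (0.839 of the range), and it holds the same miR-103-3p reads. Chance flags about 1 in 20 groups. Sham 4 had the fewest reads of listed miRNAs, 5220739, and the part of depth in its values was not tested. Without sham 4 the log2 fold change of miR-103-3p was 0.055, beside 0.018 with all libraries. The median over all tested miRNAs moved as well, from -0.0070 to 0.055.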

How the results depend on the processing

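Neither member, their sum nor their ratio passed its threshold under any alternative run, and the count of miRNAs past the adjusted threshold was 0 under all 21. The adjusted p ran from 0.923 to 0.997 for miR-103-3p and from 0.905 to 0.997 for miR-107-3p. Values this close to 0 changed sign under some settings, and the cause was not tested. Under quantile normalization the log2 fold change of miR-103-3p was -0.038 and the difference of the log2 sums -0.033; with array weights that of miR-107-3p was -0.0083. Without sham 1 and sham 2, miR-103-3p was at -0.026, miR-107-3p at -0.083, the sum at -0.029 and the log2 ratio at 0.058. Leaving out 1 library gave -0.020 to 0.055 for miR-103-3p, -0.085 to 0.12 for miR-107-3p, -0.023 to 0.058 for the sum and -0.11 to 0.066 for the ratio; the exact test of the sum and the ratio cannot go below p = 0.0571 with 3 against 4 libraries, 0.133 with 4 against 2 and 0.125 with the replicate block, so those settings could not pass. With a replicate block the log2 fold changes were again 0.018 and 0.026 (limma adjusted p = 0.979 for both), the sum and ratio differences were again 0.019 and -0.0081, and the count of calls was 0. Deviations of same-numbered libraries from their group means correlated at -0.31 to -0.011, so no pairing by number was visible. These values cannot show that the libraries were handled without pairing. The counting error of independent reads is far below the spread between libraries for miR-103-3p and miR-107-3p. The 5p arms, at 0 to 3 reads per library, lie below what this depth can compare.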
